A study of Homo sapiens with 15 samples.

Results

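Transcripts of 10 genes of the transforming growth factor beta (TGF-beta) superfamily were followed across PSN-1 libraries: the activin subunit genes INHBA, INHBB and INHBE, the ligand-binding antagonists FST and GREM1, the ligands BMP2, BMP4, TGFB1 and TGFB2, and the divergent member GDF15. They were taken by symbol from the 26485 genes listed in both deposited count tables, and all 10 were found. The set was chosen by name, except that INHBE and GREM1 were selected on their measured rise in these libraries, so their values are given here as a description, with no test. INHBA, GDF15, BMP2, BMP4, TGFB1, TGFB2, INHBB and FST were tested where their counts allowed it.

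PSN-1 is an established human pancreatic ductal adenocarcinoma (PDAC) cell line. In the first experiment the cells were transfected for 72 hours with siMondoA, siMLX or siControl, which are small interfering RNAs against MondoA (gene MLXIP), against its partner MLX, and a control. In the second they received SBI-477, labelled as a MondoA inhibitor, or its vehicle DMSO, also for 72 hours. Each of the 5 groups has 3 libraries, 15 in all, from this single line grown in serum; the labels do not say whether replicates are separate cultures, so p-values measure only library-to-library spread, possibly technical.

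Activins and TGF-betas bind type II and type I receptor kinases that phosphorylate SMAD2 and SMAD3, whereas BMPs signal mainly through SMAD1, SMAD5 and SMAD9, and both branches share SMAD4. Follistatin, the product of FST, traps activins, and gremlin, the product of GREM1, traps BMP2 and BMP4. In PDAC, TGF-beta signalling is known both as a brake on epithelial growth and as a driver of invasion, and loss of SMAD4 is common. MondoA and MLX are basic helix-loop-helix factors that bind E-box elements together and respond to sugar phosphates, with TXNIP as their best known target.

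Summed gene counts ran between 11227343 and 14731691 per library in the siRNA experiment and between 23315440 and 30480362 in the SBI-477 experiment. MLXIP, the targeted gene, had 22.6, 23.4 and 15.7 CPM (counts set to a common library size with edgeR's TMM factors) in siMondoA libraries, against 83.6, 65.8 and 88.6 CPM in siControl libraries. MLX had 11.9, 7.15 and 7.69 CPM in siMLX libraries, against 53.4, 58.8 and 53.0 CPM in siControl libraries. Both knockdowns therefore matched their labels. Keratin genes KRT7, KRT8, KRT18 and KRT19 were counted in every library (78.6 CPM at least). The other listed epithelial markers had lower minima, from 0.384 CPM for CEACAM6 to 17.2 CPM for EPCAM. CD3E and INS had no count in any library, and PTPRC had 9 counts in all 15 libraries. PRSS1, listed with INS, had 3.08 to 77.8 CPM, and PECAM1, a listed endothelial marker, had 8.51 to 20.7 CPM. COL3A1 and LUM, genes typical of fibroblasts, were also counted in every library, and 9 listed fibroblast markers summed to 576 to 859 CPM in siMondoA libraries, 611 to 796 CPM in siMLX libraries and 549 to 709 CPM in siControl libraries. Over the second experiment that sum was 165 to 289 CPM in SBI-477 libraries and 106 to 359 CPM in DMSO libraries. Summed CPM of 6 immune markers, nearly all from CD68 and LYZ, was 56.3 to 73.2 in siMondoA libraries, 44.2 to 72.2 in siMLX libraries and 31.6 to 43.2 in siControl libraries. In the second experiment it was 32.0 to 62.8 in SBI-477 libraries and 29.4 to 55.9 in DMSO libraries. The part of these marker genes in the results was not tested. As these are bulk samples, more RNA per cell and more cells with that RNA cannot be told apart.

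Libraries that stand apart bear on the results below. TXNIP had 74.6, 121 and 41.5 CPM in SBI-477 replicates 1, 2 and 3, against 145, 39.2 and 204 CPM in DMSO replicates 1, 2 and 3. Replicate 2 of each group thus lay on the side of the other group. The fold changes in the authors' deposited table were matched by a DESeq2 fit with no replicate term only when the libraries labelled SBI-477 replicate 2 and DMSO replicate 2 were exchanged, to a median absolute log2 difference under 1e-06 over 13086 genes. As labelled the difference was 0.2, and the other 8 exchanges of 1 library per group gave 0.12 to 0.34. The labels are kept here, and fold changes of the members for SBI-477 are given for all 6 libraries as labelled and for replicates 1 and 3 of each group. By edgeR's quasi-likelihood test, 0 of 14023 genes passed an adjusted p of 0.05 over the 6 libraries as labelled, 409 had an unadjusted p under 0.05, and DESeq2 also called 0. Over replicates 1 and 3 the same test called 2575 of 14232 genes, or 18.1%. Over these replicates 3 of 7 tested fibroblast markers were lower and 1 higher (median log2 fold change -0.96), and 4 of 8 epithelial markers were lower and 0 higher (median -0.47).

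The library of siMLX replicate 2 also stood apart from the other siMLX libraries. Over 39 listed genes of the integrated stress response, a programme led by ATF4 that answers amino acid shortage and other stresses, the median difference in log2 CPM from the siControl mean was 2.04 in siMLX replicate 2, against 0.09 in siMLX replicate 1 and 0.26 in siMLX replicate 3. In siMondoA libraries that median was 1.18, 2.68 and 1.96. TXNIP had 172, 511 and 93.2 CPM in siMLX replicates 1, 2 and 3, and 158, 230 and 57.5 CPM in siMondoA libraries. In siControl libraries TXNIP had 783, 785 and 518 CPM, so siMLX replicate 2 lay close to the lowest of them. The main siMLX results are therefore also given without replicate 2.

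**Figure D1:**
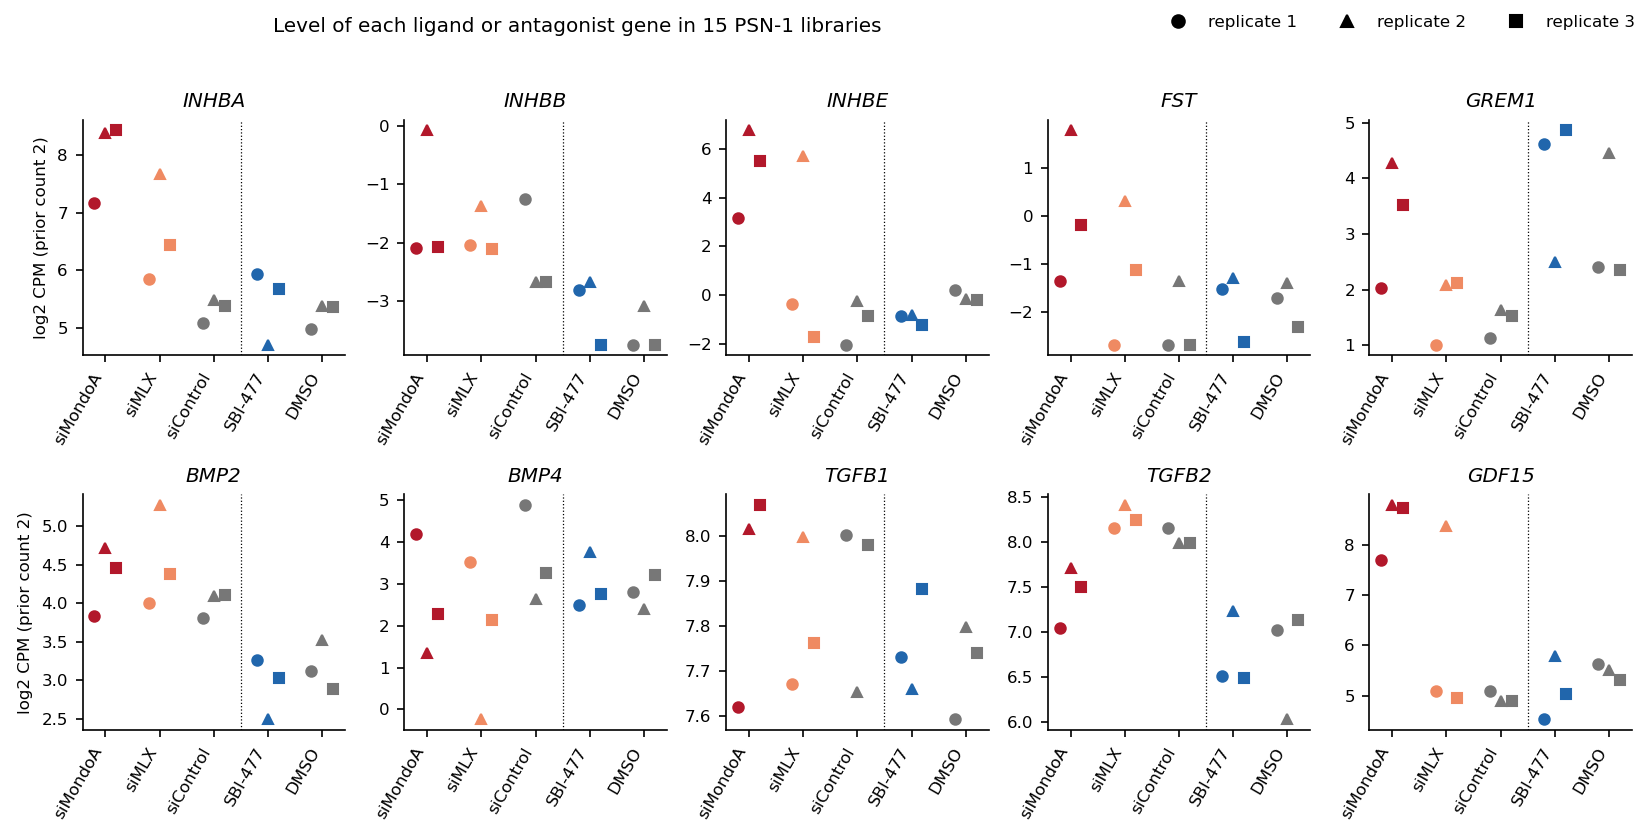
Level of each of the 10 genes in every library, as log2 CPM with a prior count of 2, with 1 panel per gene and the marker shape showing the replicate number; the dotted line separates the siRNA experiment from the SBI-477 experiment, and each panel has its own scale. INHBA, INHBE and GDF15 were highest in siMondoA libraries and in siMLX replicate 2, and GREM1 and TGFB2 in replicate 2 of SBI-477 and DMSO lay with the other group.

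The siMondoA comparison asks what loss of MondoA did to these transcripts. Of the 10 genes, 8 passed edgeR's filter on low counts in both tables, and 6 of these were open to a test. INHBA and GDF15 rose and TGFB2 fell in siMondoA libraries, which is 3 of 6, where 27.2% of all 13001 genes tested were called (14.2% higher and 12.9% lower). BMP2, BMP4 and TGFB1 did not pass. With a block on the replicate number, BMP4 was among the 4 of 6 members called, where 35% of all genes were called. After siMLX 0 of 6 passed, where 8.41% of all genes were called; 2 of the 6 had an unadjusted p under 0.05, and DESeq2 called 1. In a fit that blocks on the replicate number, which the check of pairing allows for siMLX and siControl, INHBA and BMP4 passed, 2 of 6, where 14.0% of all genes were called. Without siMLX replicate 2, 0 of 6 passed as well, where 6.27% of all genes were called. Both knockdown comparisons share the siControl libraries.

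INHBA encodes the beta-A subunit, whose dimer is activin A. The gene lies on chromosome 7 from 41667168 to 41705834 on the minus strand (GRCh38, GENCODE). INHBA had 145, 335 and 345 CPM in siMondoA libraries, 57.3, 204 and 87.1 CPM in siMLX libraries, and 33.8, 44.6 and 41.5 CPM in siControl libraries. Every siMondoA and siMLX library lay above every siControl library. The log2 fold change was 2.78 ± 0.46 (SE) in siMondoA over siControl, with an adjusted p of 0.00283 (edgeR quasi-likelihood, Benjamini-Hochberg over all genes), and it kept its call with any single library left out. In siMLX over siControl it was 1.54 ± 0.44, with an edgeR adjusted p of 0.0563. With the replicate block it was 1.37 ± 0.27 with an edgeR adjusted p of 0.0117. Without siMLX replicate 2 the unblocked value was 0.85 ± 0.32, with an edgeR adjusted p of 0.140, and without siMLX replicate 1 it was 1.86, with an edgeR adjusted p of 0.0273. For INHBA the authors' deposited table gives 2.69 for siMondoA (adjusted p of 5.15e-40) and 1.34 for siMLX (adjusted p of 2.00e-07).

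In the second experiment INHBA had 61.5, 26.1 and 50.9 CPM in SBI-477 replicates 1, 2 and 3, against 31.7, 41.7 and 41.2 CPM in DMSO replicates 1, 2 and 3. The groups overlapped as labelled, with a log2 fold change of 0.27 ± 0.28 and an edgeR adjusted p of 0.999941. Replicates 1 and 3 of SBI-477 lay above replicates 1 and 3 of DMSO, by 0.63 ± 0.14 on the log2 scale with an edgeR adjusted p of 0.0145. The authors' deposited table gives INHBA a log2 fold change of 0.65 for SBI-477, with an adjusted p of 0.00276.

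INHBE, the gene of the beta-E subunit of activin E, a hepatokine in liver, and a known target of the unfolded protein and amino acid stress pathways, lies on chromosome 12 from 57452323 to 57459280 on the plus strand. INHBE had 114, 1356 and 558 counts in siMondoA libraries, 7, 675 and 2 counts in siMLX libraries, and 1, 9 and 6 counts in siControl libraries. In TMM-scaled terms these were 8.90, 108 and 44.6 CPM in siMondoA libraries, 0.619, 51.9 and 0.152 CPM in siMLX libraries, and 0.0888, 0.697 and 0.391 CPM in siControl libraries. The siMondoA libraries differed widely among themselves, siMLX replicate 2 lay among them, and siMLX replicates 1 and 3 lay close to siControl. The fitted log2 difference was 7.02 ± 1.91 in siMondoA over siControl, and 5.42 ± 1.93 in siMLX over siControl. Without siMLX replicate 2 the siMLX value was -0.12 ± 2.01. INHBE had 14, 12 and 8 counts in SBI-477 libraries, against 33, 19 and 25 counts in DMSO libraries. Its level was therefore low in the drug experiment and did not follow the siMondoA direction, with a log2 difference of -1.01 ± 0.33 as labelled and -1.15 ± 0.42 over replicates 1 and 3. For SBI-477 the authors' deposited table has a smaller fall of INHBE, -0.53.

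INHBB, the gene of the beta-B subunit of activin B, was near the limit of detection and did not pass the filter. It had 1, 10 and 1 counts in siMondoA libraries, 1, 3 and 1 counts in siMLX libraries, and 3, 0 and 0 counts in siControl libraries. Summed over the group this is 12 counts after siMondoA against 3 after siControl, a ratio of 4.05 for these libraries with a 95% interval of 1.09 to 22.3 that covers counting error only, and 10 of the 12 came from siMondoA replicate 2. In the drug tables INHBB had 4 counts in the SBI-477 libraries together and 1 count in the DMSO libraries together.

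FST, the follistatin gene, was also below the filter. FST had 3, 41 and 9 counts in siMondoA libraries, 0, 14 and 4 counts in siMLX libraries, and 0, 3 and 0 counts in siControl libraries. The group sums of 53 counts after siMondoA and 3 after siControl give a ratio of 17.9, with a 95% counting interval of 5.79 to 89.4, and most of them came from siMondoA replicate 2. For siMLX the sum of 18 counts gives a ratio of 6.21 (1.81 to 32.9), and 14 of the 18 came from siMLX replicate 2. The replicate spread is not part of these intervals. In the authors' deposited table FST has a log2 fold change of 4.31 for siMondoA (adjusted p of 0.00397). For siMLX that table has 2.47, with no adjusted p. FST had 8, 8 and 2 counts in SBI-477 libraries, against 7, 7 and 4 counts in DMSO libraries, so no difference was detectable at this depth.

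GREM1, which encodes the secreted BMP trap gremlin 1, had 3.90, 19.3 and 11.4 CPM in siMondoA libraries, 1.86, 4.07 and 4.19 CPM in siMLX libraries, and 2.04, 2.94 and 2.74 CPM in siControl libraries. Every siMondoA library lay above every siControl library, whereas siMLX replicate 1 lay below them all. The log2 difference was 2.15 ± 0.51 in siMondoA over siControl and 0.39 ± 0.53 in siMLX over siControl, or 0.24 ± 0.60 without siMLX replicate 2. GREM1 had 24.3, 5.57 and 29.1 CPM in SBI-477 replicates 1, 2 and 3, against 5.25, 21.8 and 5.02 CPM in DMSO replicates 1, 2 and 3. Of the 10 genes it shows the replicate 2 libraries on the opposite side most plainly: the log2 difference was 0.89 ± 0.71 as labelled and 2.38 ± 0.14 over replicates 1 and 3, and the authors' deposited table gives 2.26. GREM1 lay above its controls under siMondoA and under SBI-477 (replicates 1 and 3). INHBE was high in all 3 siMondoA libraries and low in both drug groups, at 0.354 to 0.499 CPM in SBI-477 libraries and 0.789 to 1.10 CPM in DMSO libraries. Both genes were selected on a rise, so these patterns are a description only.

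GDF15 encodes a stress-induced circulating factor whose receptor, GFRAL with RET, acts in the brainstem. The gene lies on chromosome 19 from 18374731 to 18389176 on the plus strand. GDF15 had 207, 442 and 425 CPM in siMondoA libraries, 34.2, 331 and 30.7 CPM in siMLX libraries, and 34.0, 29.4 and 29.8 CPM in siControl libraries. All siMondoA libraries and siMLX replicate 2 were high, while siMLX replicates 1 and 3 were within or beside the siControl range. The log2 fold change was 3.53 ± 0.82 in siMondoA over siControl, with an edgeR adjusted p of 0.0121. With single libraries left out, that p ran from 2.00e-05 to 0.0539, the highest without siControl replicate 2. In siMLX over siControl the log2 fold change was 2.09 ± 0.77 with an edgeR adjusted p of 0.119, and 0.06 ± 0.27 with an edgeR adjusted p of 0.921 once siMLX replicate 2 was left out. For GDF15 the authors' deposited table gives 3.45 for siMondoA (adjusted p of 2.86e-50) and 1.06 for siMLX (adjusted p of 0.572).

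GDF15 had 23.0, 55.4 and 32.6 CPM in SBI-477 replicates 1, 2 and 3, against 49.7, 45.8 and 39.4 CPM in DMSO replicates 1, 2 and 3. Over replicates 1 and 3 it fell, by 0.68 on the log2 scale (SE 0.16) with an edgeR adjusted p of 0.0208, against -0.28 ± 0.29 and an edgeR adjusted p of 0.999941 as labelled. The authors' deposited table gives -0.50 with an adjusted p of 0.0684. The effects of SBI-477 and siMondoA on GDF15 were unequal: the SBI-477 effect minus the siMondoA effect was -3.80 ± 0.43 on the log2 scale with an edgeR adjusted p of 0.000462, where 10.4% of 14065 genes were called. For INHBA the same difference was -2.49 ± 0.46 with an edgeR adjusted p of 0.00533. Without replicate 2 of SBI-477 and DMSO, these differences were -4.19 ± 0.40 for GDF15 (edgeR adjusted p of 0.00027) and -2.13 ± 0.42 for INHBA (edgeR adjusted p of 0.00747), where 17.4% of 13778 genes were called. For BMP2, BMP4, TGFB1 and TGFB2 the difference did not pass in either fit.

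**Figure D2:**
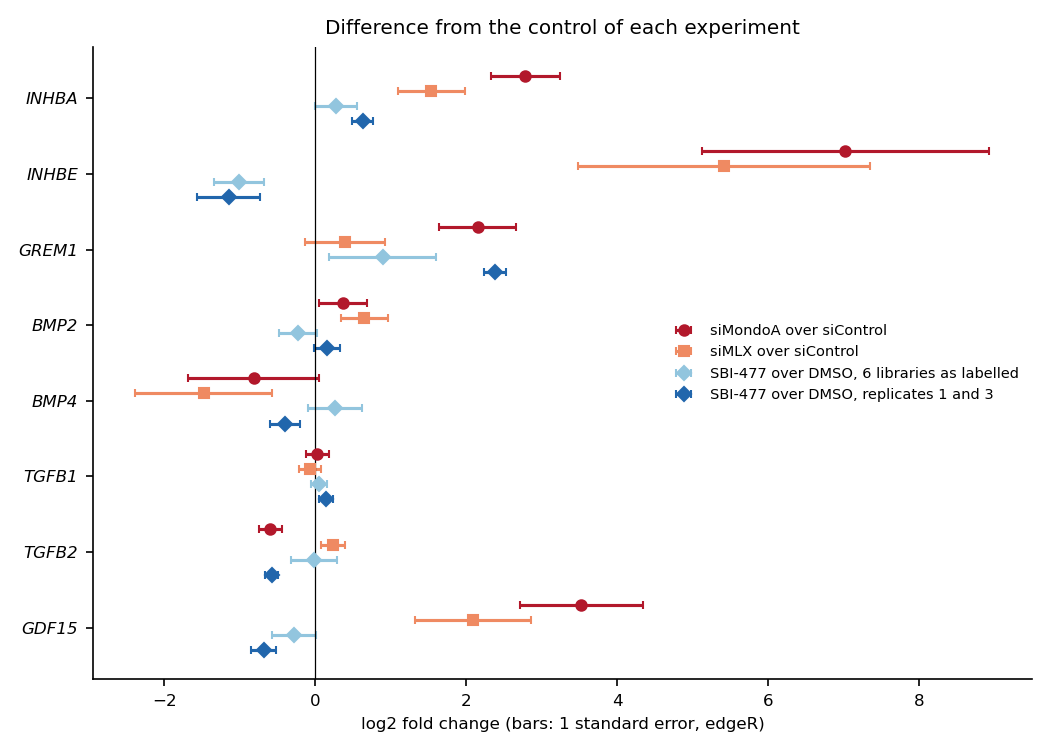
Fitted log2 fold changes of the 8 genes that passed the filter, with bars of 1 standard error from edgeR, for siMondoA over siControl, siMLX over siControl, and SBI-477 over DMSO with all 6 libraries as labelled or with replicates 1 and 3. INHBA, INHBE and GDF15 lie far to the right for siMondoA only or for both knockdowns, and TGFB2 lies left of 0 for siMondoA (-0.59) and for SBI-477 replicates 1 and 3 (-0.58).

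Stress response genes were high in the libraries where INHBE and GDF15 were highest. ATF4 itself had 567, 835 and 626 CPM in siMondoA libraries, 320, 695 and 336 CPM in siMLX libraries, and 258, 320 and 253 CPM in siControl libraries. Of the 40 listed stress response genes, 34 rose and 0 fell after siMondoA, where 14.2% of all genes were higher (median log2 fold change 2.14, against 0.00 over all genes), although this count was 10 without siControl replicate 1 or without siControl replicate 2, 13 without siControl replicate 3, 16 without siMondoA replicate 2 and 17 without siMondoA replicate 3. INHBE and GDF15 exceeded the siControl mean by at least 2.73 on the log2 scale in the 3 siMondoA libraries and in siMLX replicate 2, the same 4 libraries in which the stress median was above 1. In SBI-477 libraries the stress median was -0.12, -0.12 and -0.01 relative to the DMSO mean, and ATF4 fell over replicates 1 and 3 by 0.43 (SE 0.09, edgeR adjusted p of 0.0105). Relative to the DMSO mean, GDF15 was at -0.96 and INHBA at 0.70 in SBI-477 replicate 1. In SBI-477 replicate 2, which lay on the side of the other group for TXNIP, GDF15 was at 0.31 and INHBA at -0.53. INHBA lay 1.13 above the siControl mean in siMLX replicate 3, where the stress median was 0.26. What part the stress response has in the values of INHBE, GDF15 and INHBA was not tested.

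**Figure D3:**
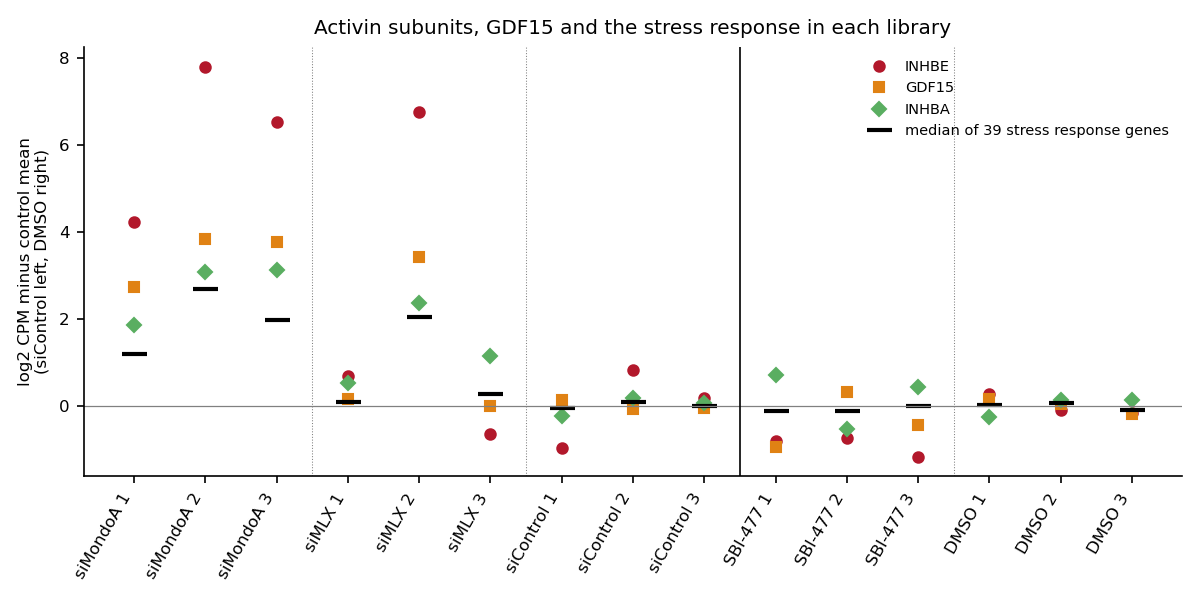
Level of INHBE, GDF15 and INHBA and the median of 39 listed stress response genes in each library, as log2 CPM minus the mean of the siControl libraries (left of the solid line) or of the DMSO libraries (right). The 3 siMondoA libraries and siMLX replicate 2 are high for all 4 measures, with stress medians of 1.18, 2.68, 1.96 and 2.04.

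BMP2 and BMP4 encode bone morphogenetic proteins. BMP2 had 14.1, 26.0 and 21.8 CPM in siMondoA libraries, 15.8, 38.4 and 20.6 CPM in siMLX libraries, and 13.9, 17.0 and 17.0 CPM in siControl libraries, and neither knockdown passed (siMondoA 0.37 ± 0.31, edgeR adjusted p of 0.403; siMLX 0.65 ± 0.31, edgeR adjusted p of 0.221). Its highest value was again siMLX replicate 2, without which the siMLX value was 0.19 ± 0.24. BMP4 had 18.3, 2.38 and 4.72 CPM in siMondoA libraries, 11.3, 0.692 and 4.26 CPM in siMLX libraries, and 29.5, 6.12 and 9.51 CPM in siControl libraries. Replicate 1 was the highest of each of these groups, and within each replicate number the siMLX library was the lowest and the siControl library the highest. In siMLX over siControl the log2 fold change of BMP4 was -1.48 ± 0.90 with an edgeR adjusted p of 0.334 (-0.95 ± 0.82 without siMLX replicate 2), and with the replicate block -1.64 ± 0.28 with an edgeR adjusted p of 0.00721, where 14.0% of genes were called. With the block BMP4 fell, and the log2 differences within replicates 1, 2 and 3 were -1.37, -2.89 and -1.13. In siMondoA over siControl without the block, the log2 fold change of BMP4 was -0.82 ± 0.87 with an edgeR adjusted p of 0.507. With the block BMP4 passed there as well, and its log2 differences within replicates 1, 2 and 3 were -0.69, -1.31 and -0.99. The authors' deposited table, whose siRNA fold changes were matched by a DESeq2 fit with a replicate term, gives BMP4 -1.72 for siMLX (adjusted p of 1.85e-05) and -0.99 for siMondoA (adjusted p of 0.0029).

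In the drug experiment BMP2 had 9.54, 5.57 and 8.14 CPM in SBI-477 libraries, against 8.61, 11.4 and 7.35 CPM in DMSO libraries. BMP4 had 5.57, 13.5 and 6.68 CPM in SBI-477 libraries, against 6.95, 5.17 and 9.21 CPM in DMSO libraries. Neither passed as labelled or over replicates 1 and 3, where the log2 fold changes were 0.15 ± 0.17 for BMP2 (edgeR adjusted p of 0.559) and -0.40 ± 0.20 for BMP4 (edgeR adjusted p of 0.183). The authors' deposited table gives BMP4 -0.75 with an adjusted p of 0.0112, and BMP2 0.44 with an adjusted p of 0.107.

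TGFB1 and TGFB2 encode the TGF-beta ligands best known from PDAC. TGFB1 had 196, 259 and 268 CPM in siMondoA libraries, 203, 255 and 217 CPM in siMLX libraries, and 256, 201 and 252 CPM in siControl libraries. The groups overlapped throughout, and the log2 fold changes were 0.03 ± 0.15 for siMondoA and -0.07 ± 0.15 for siMLX, with 95% intervals of -0.27 to 0.33 and -0.37 to 0.23. TGFB1 had 212, 202 and 236 CPM in SBI-477 libraries, against 193, 222 and 214 CPM in DMSO libraries, with a log2 fold change of 0.05 ± 0.11 (edgeR adjusted p of 0.999941) as labelled and 0.14 ± 0.09 (edgeR adjusted p of 0.310) over replicates 1 and 3. TGFB1 overlaps CCDC97, HNRNPUL1 and TMEM91 on the other strand, and the sources used here do not say whether counting used strand, so its counts could hold reads of those genes; INHBA overlaps INHBA-AS1 on the other strand, which had 30 counts in the 9 siRNA libraries together.

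TGFB2 fell after siMondoA. TGFB2 had 132, 210 and 181 CPM in siMondoA libraries, 285, 339 and 302 CPM in siMLX libraries, and 283, 253 and 252 CPM in siControl libraries. The siMondoA libraries lay below all others, and every siMLX library lay above every siControl library. The log2 fold change was -0.59 ± 0.16 in siMondoA over siControl, with an edgeR adjusted p of 0.0207. That call was lost without siMondoA replicate 3 (edgeR adjusted p of 0.0562), without siControl replicate 1 (0.0743) or without siControl replicate 2 (0.0551). In siMLX over siControl the log2 fold change was 0.23 ± 0.16, with an edgeR adjusted p of 0.389, and 0.16 ± 0.17 without siMLX replicate 2. For TGFB2 the authors' deposited table gives -0.62 for siMondoA (adjusted p of 0.00535) and 0.23 for siMLX (adjusted p of 0.325). Set directly against siMLX, siMondoA libraries had less TGFB2, by -0.83 ± 0.16 with an edgeR adjusted p of 0.00935, where 12.9% of genes were called. It was the only member of 6 to pass in that comparison with all 9 libraries; without siMLX replicate 2, INHBA (1.93 ± 0.34, edgeR adjusted p of 0.00368) and GDF15 (3.46 ± 0.30, edgeR adjusted p of 0.000161) passed as well, where 22.5% of genes were called.

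TGFB2 had 91.1, 150 and 89.7 CPM in SBI-477 replicates 1, 2 and 3, against 130, 65.4 and 140 CPM in DMSO replicates 1, 2 and 3. Replicates 1 and 3 of SBI-477 lay below those of DMSO, by -0.58 ± 0.09 with an edgeR adjusted p of 0.00377. As labelled the value was -0.02 ± 0.31 with an edgeR adjusted p of 0.999941. The authors' deposited table gives -0.76 with an adjusted p of 1.53e-06. Over replicates 1 and 3, INHBA, GDF15 and TGFB2 were thus 3 of 6 members called (1 higher and 2 lower), against 18.1% of all genes (9.07% higher and 9.02% lower).

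RefSeq promoter windows (250 bases before to 50 after a start, GRCh38.p14) were matched for 8 of the 10 genes, those of INHBE and BMP2 not being in the table. Windows were searched on both strands for the E-box CACGTG, for TGATGNAA (an ATF4-C/EBP composite element), for TGANTCA (AP-1) and for TGACGTCA (a cyclic AMP response element), none of which overlapped another in the matches below. The E-box was found 49 bases before the start of TGFB2 and 83 bases before that of the third BMP4 window, and AP-1 was found 160 bases before that of FST. None of the 4 motifs was found in the windows of INHBA, GDF15, GREM1, INHBB and TGFB1. Over all 34943 windows of that length, 7.23% held the E-box, 3.62% TGATGNAA, 7.72% TGANTCA and 1.84% TGACGTCA. The 250 bases before the start are printed 5′ to 3′ for TGFB2, which fell after siMondoA, and for INHBA, which rose; capitals mark the E-box. The TGFB2 stretch is chr1:218345086-218345335 on the plus strand, where it overlaps an exon of the antisense gene TGFB2-AS1, and the INHBA stretch is chr7:41703091-41703340 on the minus strand, whose edge overlaps an exon of another annotated INHBA isoform. A match is only a run of letters, and no match says only that these letters are not in the window.
TGFB2: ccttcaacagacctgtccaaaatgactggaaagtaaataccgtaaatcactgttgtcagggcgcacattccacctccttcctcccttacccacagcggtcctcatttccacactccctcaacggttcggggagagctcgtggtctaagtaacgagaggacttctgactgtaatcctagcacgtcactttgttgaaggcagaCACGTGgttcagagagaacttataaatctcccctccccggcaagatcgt
INHBA: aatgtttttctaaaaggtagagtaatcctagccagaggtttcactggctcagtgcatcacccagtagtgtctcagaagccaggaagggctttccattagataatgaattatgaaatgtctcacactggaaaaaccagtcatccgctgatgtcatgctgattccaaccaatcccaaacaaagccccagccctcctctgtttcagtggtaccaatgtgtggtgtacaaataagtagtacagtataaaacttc

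Per kilobase of annotated exon, the order of levels in siControl libraries was TGFB1 (73.0 ± 9.5 CPM per kb, SD, n = 3), TGFB2 (51.0 ± 3.4), GDF15 (14.9 ± 1.2), then BMP4, INHBA and BMP2 (4.88 ± 4.1, 4.82 ± 0.67 and 4.43 ± 0.50), and, lowest, GREM1 (0.176 ± 0.032), INHBE (0.130 ± 0.10), INHBB and FST. TGFB1 and TGFB2 did not overlap, while BMP4, INHBA and BMP2 did. In siMondoA libraries GDF15 led (171 ± 63 CPM per kb), ahead of TGFB1 (74.5 ± 12), TGFB2 (33.8 ± 7.6), INHBA (33.1 ± 14) and INHBE (17.8 ± 17). TGFB2, INHBA and INHBE overlapped there. Exon lengths are the union over annotated isoforms, so genes with long rare isoforms are understated.

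The other ligands of the superfamily were mostly silent: of 25 listed, 7 passed the filter, and TGFB3 rose after siMondoA (0.99 ± 0.20, edgeR adjusted p of 0.00765), 1 of 7. After siMLX, BMP7 rose (0.41 ± 0.10, edgeR adjusted p of 0.0345), a call that was lost on leaving out any single siMLX or siControl library other than siMLX replicate 2. Over SBI-477 replicates 1 and 3, GDF11 rose (0.51 ± 0.09, edgeR adjusted p of 0.00749) and INHA, the inhibin alpha subunit, fell (-1.48 ± 0.43, edgeR adjusted p of 0.0415), 2 of 9. The median log2 fold change of the tested ligands was 0.11 after siMondoA, 0.41 after siMLX and -0.15 over SBI-477 replicates 1 and 3, beside 0.00, 0.02 and -0.01 over all genes tested. Shares of all genes called in these comparisons were 27.2%, 8.41% and 18.1%.

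Among 14 further antagonists, 5 were tested after siMondoA and FSTL3, a follistatin relative that binds activin, rose (1.04 ± 0.21, edgeR adjusted p of 0.00748). FSTL3 also rose after siMLX (0.86 ± 0.21, edgeR adjusted p of 0.0356), but 0 antagonists were called there on leaving out any single siMLX or siControl library, and 2 with the replicate block. Over SBI-477 replicates 1 and 3, BMPER (1.43 ± 0.26, edgeR adjusted p of 0.00769) and TWSG1 (0.38 ± 0.09, edgeR adjusted p of 0.0197), both extracellular BMP modulators, rose, 2 of 4 tested. Of all genes, 18.1% were called over these replicates, 27.2% after siMondoA and 8.41% after siMLX.

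Of 17 genes for ligand processing and latency, 11 were tested after siMondoA, and 4 rose and 2 fell, where 14.2% of all genes were higher and 12.9% lower. FURIN, the protease that cleaves the ligand precursors, rose by 0.52 ± 0.17 (edgeR adjusted p of 0.0411). LTBP1, which anchors latent TGF-beta, and ITGB8 and THBS1, which take part in its activation, rose by 0.69 ± 0.15, 1.11 ± 0.22 and 0.75 ± 0.25, with edgeR adjusted p-values of 0.00834, 0.00613 and 0.0458. BMP1, a procollagen protease that frees ligands from the matrix, and LTBP3 fell, with log2 fold changes of -0.50 ± 0.16 and -0.59 ± 0.13. The count was 3 without siMondoA replicate 3, siControl replicate 1 or siControl replicate 2. Over SBI-477 replicates 1 and 3, LTBP1 (0.91 ± 0.15), ITGB8 (0.50 ± 0.11), THBS1 (0.32 ± 0.09) and NRROS (0.51 ± 0.14) rose and LTBP3 (-0.65 ± 0.12) and LTBP4 (-0.78 ± 0.14) fell, 6 of 12 tested, each with an edgeR adjusted p between 0.00474 and 0.0390. Of all genes, 18.1% were called over these replicates and 8.41% after siMLX. After siMLX 0 of 11 were called, 2 without siMLX replicate 2, and 3, all lower, with the replicate block, where 14.0% of all genes were called.

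Receptors for TGF-beta, activins and BMPs were counted, though ACVR1C and BMPR1B had only 5 and 4 counts in the siMondoA libraries together. Those of GDF15 were near 0: GFRAL had 0 counts in the siMondoA libraries together and 1 in the siControl libraries. RET had 0 and 4 counts in those groups. TGFBR2, the type II receptor for TGF-beta, had 416, 444 and 470 CPM in siMondoA libraries, 700, 827 and 661 CPM in siMLX libraries, and 892, 902 and 763 CPM in siControl libraries. It fell after siMondoA (-0.94 ± 0.12, edgeR adjusted p of 0.000917), as did BMPR2, the BMP type II receptor (-0.68 ± 0.10, edgeR adjusted p of 0.00162), and the decoy receptor BAMBI (-0.88 ± 0.29, edgeR adjusted p of 0.0431). These were 3 of 12 tested receptors, a share near the 27.2% of all genes called, and 5 without siMondoA replicate 1 or without siMLX replicate 2. ACVR2A, an activin type II receptor, did not pass (0.45 ± 0.21, edgeR adjusted p of 0.129), and its partner ACVR1B averaged 47.8 ± 1.8 CPM in siMondoA libraries and 44.4 ± 2.2 CPM in siControl libraries (SD, n = 3 each). After siMLX the co-receptor TGFBR3 fell (-1.62 ± 0.30, edgeR adjusted p of 0.0112), 1 of 12, a call lost without siControl replicate 1, and 2 of 12 were called with the replicate block. Of all genes, 8.41% were called after siMLX and 14.0% with that block. Over SBI-477 replicates 1 and 3, TGFBR1 rose (0.29 ± 0.08, edgeR adjusted p of 0.0439) and ACVR2B fell (-0.58 ± 0.12, edgeR adjusted p of 0.0115), while TGFBR2 gave -0.38 ± 0.13 with an edgeR adjusted p of 0.0686. TGFBR1 and ACVR2B were 2 of 12 tested, where 18.1% of all genes were called.

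SMAD4, the shared SMAD, had 0 counts in each of the 9 siRNA libraries, and 1 count in SBI-477 replicate 1 and 1 in DMSO replicate 1 among the drug libraries. A count of 0 in siControl replicate 1 allows up to 0.266 CPM (3 counts of its total, counting error only). SMAD2 averaged 64.6 ± 3.2 CPM in siMondoA libraries and 62.7 ± 7.4 CPM in siControl libraries, and SMAD3 196 ± 41 CPM in siMondoA libraries and 195 ± 5.6 CPM in siControl libraries (SD, n = 3 each). Of 13 tested SMADs and regulators, 4 were called after siMondoA, a share near the 27.2% of all genes: the inhibitory SMAD7 (0.60 ± 0.17, edgeR adjusted p of 0.024), SMURF1, a ubiquitin ligase for SMADs (0.40 ± 0.11, edgeR adjusted p of 0.0233), and the repressor TGIF1 (1.23 ± 0.35, edgeR adjusted p of 0.0284) rose, and the inhibitory SMAD6 fell (-1.19 ± 0.26, edgeR adjusted p of 0.0105). The count was 1 without siMondoA replicate 3 or siControl replicate 1, 2 without siMondoA replicate 2, siControl replicate 2 or siControl replicate 3, and 7 without siMLX replicate 2. After siMLX 0 of 13 were called, or 1 with the replicate block, and over SBI-477 replicates 1 and 3 SMAD3 fell (-0.42 ± 0.11, edgeR adjusted p of 0.0288), 1 of 14. Shares of all genes called were 8.41% after siMLX, 14.0% with its block and 18.1% over SBI-477 replicates 1 and 3.

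**Figure D4:**
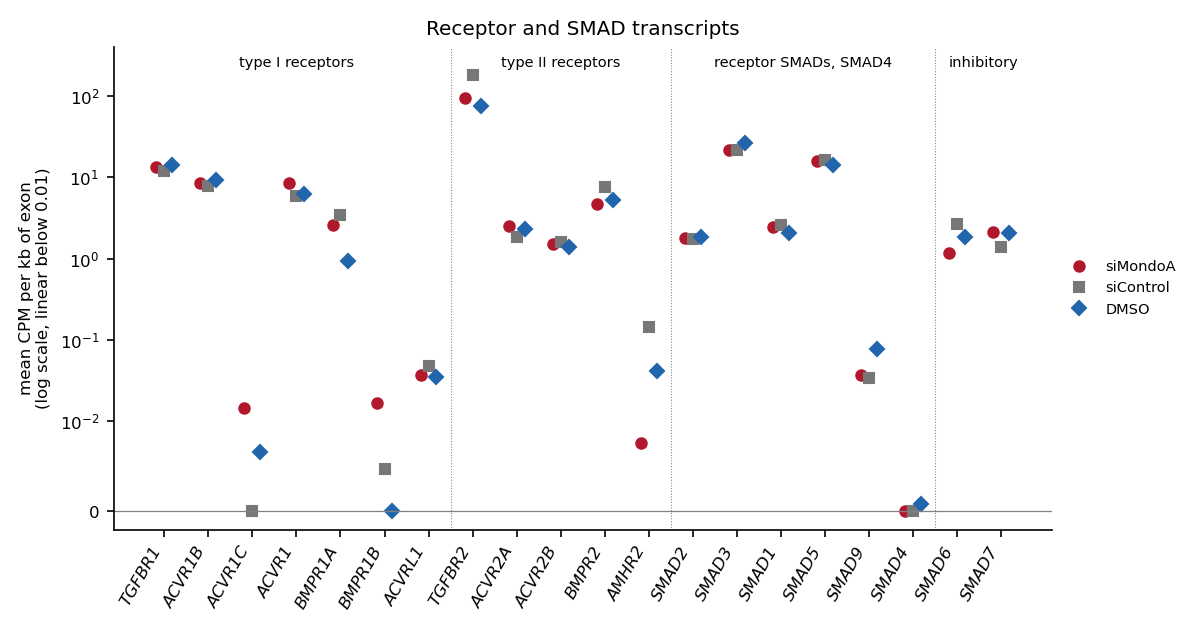
Mean CPM per kilobase of exon in siMondoA, siControl and DMSO libraries (3 each) for receptor and SMAD genes, on a log scale that is linear below 0.01. Type I and type II receptors for TGF-beta, activin and BMP and the receptor SMADs lie mostly above 1, whereas SMAD4 lies at 0 in the siRNA groups.

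Genes known to respond to TGF-beta changed after siMondoA in 7 of 15 tested, all upward, where 14.2% of all genes were higher and 12.9% lower, with a median log2 fold change of 0.76 against 0.00 over all genes. Among those that rose were SNAI2, a repressor of epithelial genes (2.50 ± 0.45), the cell cycle inhibitor CDKN1A (2.34 ± 0.40), JUNB (1.29 ± 0.33), SMAD7, TGIF1 and KLF10, an early response gene. The count was 3 without siMondoA replicate 3, siControl replicate 1 or siControl replicate 3, 4 without siControl replicate 2, and 10 without siMLX replicate 2. Several of these genes are known to respond to other signals too, and the 34 stress response genes rose in the same libraries. What part TGF-beta signalling, the stress response or other signals have in these calls was not tested.

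After siMLX 2 of 15 such genes were called, where 8.41% of all genes were called: COL1A1 upward (0.94 ± 0.24, edgeR adjusted p of 0.0386) and TGFBI downward (-0.90 ± 0.20, edgeR adjusted p of 0.0257). The count was 1 without any single siMLX library, siControl replicate 2 or siControl replicate 3, and 0 without siControl replicate 1. Over SBI-477 replicates 1 and 3, CDKN1A rose (1.09 ± 0.20) while CTGF, a matricellular growth factor (-1.57 ± 0.14), TGFBI (-1.01 ± 0.13), COL1A1 (-2.37 ± 0.25) and KLF10 (-0.39 ± 0.11) fell, 5 of 16 tested, where 18.1% of all genes were called, with edgeR adjusted p-values between 0.000527 and 0.0399. COL1A1 is also a listed fibroblast marker, and the fall of fibroblast markers over these replicates is given above; its part here was not tested. As labelled no gene of these lists was called for SBI-477.

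Genes known to respond to BMPs went in both directions after siMondoA, 2 higher and 4 lower of 9 tested (median -0.06), where 14.2% of all genes were higher and 12.9% lower. ID2, a helix-loop-helix inhibitor of differentiation, had 39.7, 19.7 and 24.3 CPM in siMondoA libraries, 56.6, 27.2 and 46.0 CPM in siMLX libraries, and 87.5, 85.8 and 60.5 CPM in siControl libraries. ID2 fell after siMondoA (-1.48 ± 0.30, edgeR adjusted p of 0.0074), with ATOH8 (-2.53 ± 0.40, edgeR adjusted p of 0.00234), SMAD6 and BAMBI, while the homeobox gene MSX2 (1.68 ± 0.25, edgeR adjusted p of 0.00192) and SMAD7 rose. ID1 had 43.3, 20.2 and 30.2 CPM in siMondoA libraries, 64.3, 74.8 and 56.3 CPM in siMLX libraries, and 31.4, 27.4 and 29.8 CPM in siControl libraries. It rose after siMLX (1.14 ± 0.23, edgeR adjusted p of 0.0159, and 0.0318 without siMLX replicate 2) and did not pass after siMondoA (0.08 ± 0.23, edgeR adjusted p of 0.820), and siMondoA libraries were lower than siMLX libraries (-1.06 ± 0.23, edgeR adjusted p of 0.0157). ATOH8 fell after siMLX too (-2.35 ± 0.39, edgeR adjusted p of 0.00761), so that 2 of 9 were called, or 1 without any single siControl library, and 4 with the replicate block. Over SBI-477 replicates 1 and 3, ATOH8 (-3.69 ± 0.44) and ID1 (-0.56 ± 0.14) fell and ID2 rose (0.39 ± 0.11), 3 of 10 tested, with edgeR adjusted p-values of 0.00156, 0.0243 and 0.0385. Of all genes, 18.1% were called over these replicates, 8.41% after siMLX and 14.0% with the siMLX replicate block. ID3 had at most 9 counts in any siRNA library and was not tested there.

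**Figure D5:**
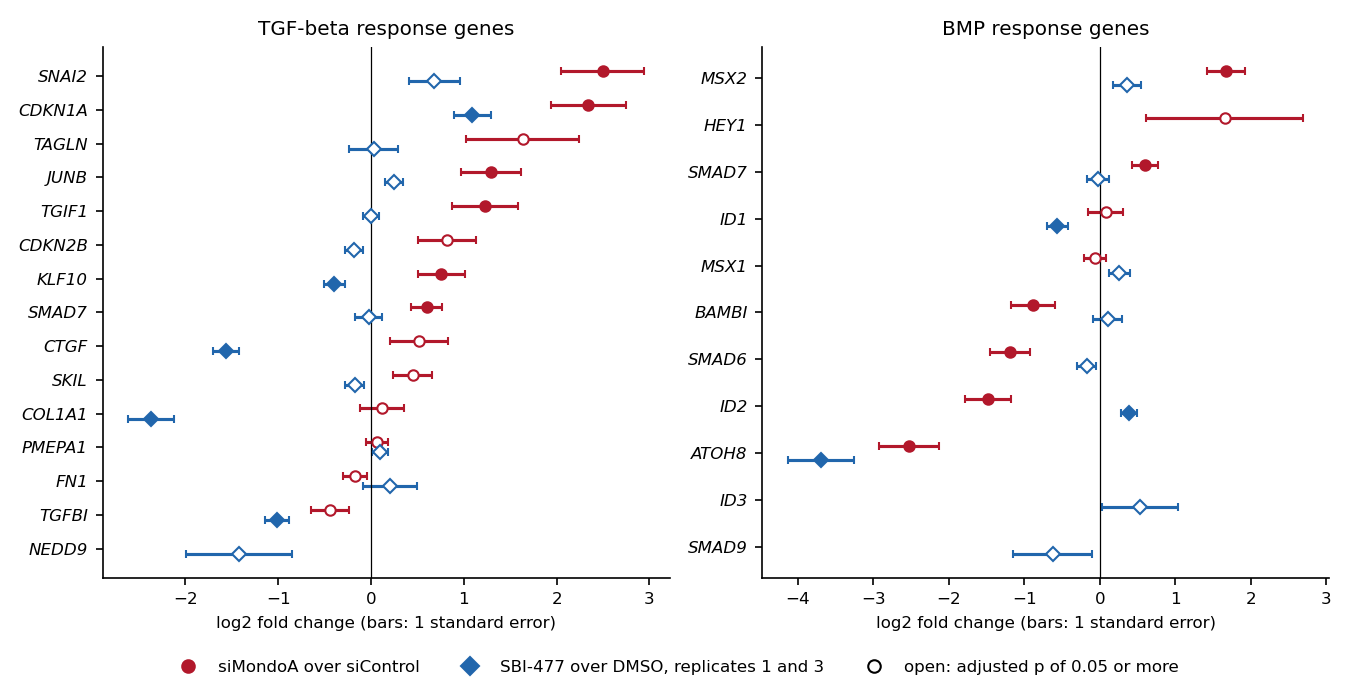
Log2 fold changes, with bars of 1 standard error, of TGF-beta response genes (left) and BMP response genes (right) in siMondoA over siControl (circles) and in SBI-477 over DMSO for replicates 1 and 3 (diamonds), with open symbols where the adjusted p was 0.05 or more. For siMondoA the plotted TGF-beta response genes that were called all lie right of 0, up to 2.50 for SNAI2, and ID2 lies left of 0 for siMondoA (-1.48) and right of 0 for SBI-477 (0.39).

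The genes whose library-by-library pattern was nearest to each of INHBE, GREM1 and GDF15 were found among 10860 tested genes averaging 4 CPM or more, by the root mean square difference of log2 levels over the 9 siRNA libraries, after subtracting each gene's siControl mean. Nearest to GDF15 were DDIT3 (0.31), TRIB3 (0.36), JDP2 (0.40) and ASNS (0.50). DDIT3, which encodes the stress factor CHOP, averaged 89.2 ± 18 CPM in siMondoA libraries, 37.7 ± 49 CPM in siMLX libraries and 7.46 ± 2.2 CPM in siControl libraries (SD, n = 3 each). Nearest to INHBE were CHAC1 (1.04), CCL20 (1.21), IL1A (1.47), GAB2 (1.57) and ADM2 (1.57). CHAC1, a glutathione-degrading enzyme, averaged 86.4 ± 17 CPM in siMondoA libraries, 34.97 ± 58 CPM in siMLX libraries and 0.941 ± 0.39 CPM in siControl libraries. Nearest to GREM1 were CCAT1 (0.42), ATP2B1, AKAP2, AGTPBP1 and EMP1 (0.43 to 0.44), with CCAT1, a noncoding RNA, at 740 ± 448 CPM in siMondoA libraries, 236 ± 108 CPM in siMLX libraries and 136 ± 22 CPM in siControl libraries.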

How the data were processed

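RNA of PSN-1 cells was sequenced as short read pairs. The deposited count tables hold whole-number counts per gene symbol; bcl2fastq 1.8.4, TopHat2 2.1.0, HTSeq 0.6.1, edgeR and the builds hg38 and mm10 are named, with no role or order, per the submitters' processing notes. Mouse reads could not be looked for. The authors' deposited log2 fold changes, p-values and mean normalized signal (baseMean) are quoted only where named, and their headers are those DESeq2 writes, per the file headers. All columns matched a sample title.

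Here edgeR 4.0.16 (R 4.3.3, limma 3.58.1) was fitted by quasi-likelihood to all genes passing filterByExpr (minimum count 10), with TMM scaling and no replicate term, over the 9 siRNA libraries, over the 6 drug libraries, and over 12 libraries for the SBI-477 effect minus the siMondoA effect. Batch and experiment cannot be told apart in that difference, which is why each effect is set against its own control. p-values were adjusted over all genes (threshold 0.05), and CPM uses a prior count of 2 on the log2 scale. Alternatives were DESeq2 1.42.0, other scalings, no filter, a replicate block and leaving out libraries. The code was tested on simulated data.

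Same-numbered siMLX and siControl libraries deviated together (correlations 0.268, 0.188 and 0.359), so their numbers pair them. No libraries were duplicates: a chi-square test of counts gave at least 7.93 per degree of freedom for each replicate pair. The members and gene lists were chosen with earlier results of these data known, so their counts are not independent support. Named by rule were all members, the targeted and marker genes of the pathway, up to 6 genes per list and comparison with the smallest adjusted p, and the 5 genes nearest in pattern to INHBE, GREM1 and GDF15; levels of ACVR1B, SMAD2 and SMAD3 and the name KLF10 after siMondoA were added after their values were seen. A gene that these lists and rules also name is not reported here, though list counts include it. Positions are from GENCODE (GRCh38), and promoter sequences from RefSeq. Figures were drawn with matplotlib 3.10.9.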

Additional observations from a re-analysis of the deposited data

Results flagged for a closer look

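Of 6 tested members, 2 had unequal effects under SBI-477 and siMondoA, where 10.4% of 14065 genes were called. The SBI-477 effect minus the siMondoA effect was -2.49 for INHBA and -3.80 for GDF15 on the log2 scale, both past the threshold in edgeR's test of the difference (adjusted p of 0.00533 and 0.000462). For INHBE, selected on its rise, the value was -8.03, and this difference was not tested. INHBE was higher in each siMondoA library than in any siControl library. As labelled, it was lower in each SBI-477 library than in any DMSO library. Exchanging SBI-477 replicate 2 (0.499 CPM) and DMSO replicate 2 (0.825 CPM) would make the drug groups overlap, as DMSO replicate 3 had 0.789 CPM.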

How the results depend on the processing

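No result changed sign with a call. Over the members' fold changes, 488 alternative values kept direction and side of the threshold, 15 gained a call, 4 lost it and 25 moved, either INHBE or GREM1 by more than the replicate spread or an uncalled value across 0. Leaving out single libraries gave 1745 to 4333 genes called in siMondoA over siControl (3533 with all), 254 to 833 in siMLX over siControl (1094), 670 to 2969 in siMondoA over siMLX (1673), and 783 to 2234 for the SBI-477 effect minus the siMondoA effect (1462). Members called then numbered 1 to 4 (3), 0 to 1 (0), 1 to 3 (1) and 2 to 3 (2). In siMLX over siControl DESeq2 called 1645 genes, and 1 member was called by DESeq2, without the filter on low counts, or with only the 6 libraries compared. In siMondoA over siMLX the 6 libraries alone gave 706 genes, and 2 members were called without the filter. Without replicate 2 of SBI-477 and DMSO, 2575 genes and 3 members were called for SBI-477, and 2397 genes for the difference of effects.

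With the replicate number as a block, 1815 genes and 2 members were called in siMLX over siControl, 4551 genes in siMondoA over siControl, 2606 genes and 2 members in siMondoA over siMLX, and 513 for the difference of effects; BMP4 was then called after siMondoA (-0.98, edgeR adjusted p of 0.0214). Same-numbered siMondoA and siControl libraries correlated at 0.136, 0.088 and 0.008, and siMondoA and siMLX libraries at 0.534, 0.447 and -0.109. The authors' siMondoA fold changes were matched to a median difference under 1e-06 with a replicate term, and to 0.0066 without it. SBI-477 and DMSO libraries correlated at -0.243, -0.555 and -0.448, so there the block rests on a number alone. DESeq2 gave GDF15 no adjusted p after siMondoA and called FST (4.19, adjusted p of 0.0162). Why these values moved was not tested. INHBB and FST are limited by depth.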

Other observations

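SMAD4 and its neighbour ELAC1 on chromosome 18 had 0 counts in the 9 siRNA libraries together. The drug libraries held 2 counts of SMAD4 and 0 of ELAC1. The next genes on either side were counted throughout: ME2 had 7207 counts in the siRNA libraries and 14153 in the drug libraries, and MEX3C had 11711 and 11646 counts in those libraries. INHBA, TGFB1 and TGFB2 were thus measured in libraries with almost no SMAD4 RNA.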
